A study of Capra hircus with 9 samples.

Results

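Of the 36240 lncRNA transcripts assembled from goat early embryos, 144 were abundant in two-cell embryos and lower in both kinds of eight-cell embryos. These lncRNAs were selected on their FPKM values (sequenced fragments, scaled to transcript length and library size). A member had to be above 0 in every library, at 5 FPKM or more in the two-cell library, and higher there than in each eight-cell library by a log2 ratio of FPKM + 0.1 above 2, which is a fall to about 25% of the two-cell value or less. The 3 libraries were IVF-2c (two-cell embryos after in vitro fertilization), IVF-8c (eight-cell embryos after in vitro fertilization) and SCNT-8c (eight-cell embryos after somatic cell nuclear transfer, in which an enucleated oocyte receives the nucleus of a fibroblast from a female fetus). Each came from 1 pool of embryos. With 1 library per condition no difference could be set against a replicate error, no p-value was calculated, and the falls described here are those by which the members were chosen. Where 3 values stand together without library names, IVF-2c comes first, then IVF-8c, then SCNT-8c. The depth of these libraries is unknown, because FPKM values carry no fragment counts.

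The early mammalian embryo lives at first on RNA stored in the oocyte, and most of its own transcription starts only after several cleavages. In the goat the major phase of embryonic genome activation (EGA) falls at the eight-cell stage. Stored RNAs are meanwhile removed, mRNAs mainly by shortening of their poly(A) tails through the CCR4-NOT complex and its adaptor BTG4, followed by decay. LncRNAs are RNAs without a protein product, many of them spliced and polyadenylated like mRNAs, so they can enter a poly(A)-primed cDNA library of the kind prepared from these embryos. The members are called maternal here because they were high before major EGA. No oocyte library was analysed here, so RNA inherited from the oocyte and RNA made in the two-cell embryo cannot be told apart. No two-cell SCNT library was analysed here either, and the fall in SCNT-8c is therefore a difference from fertilized embryos of the earlier stage. FPKM is a share of each library. A loss of molecules, a shortening of poly(A) tails and a dilution by newly made RNA cannot be told apart.

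Whether the libraries hold embryo RNA was checked with mRNAs of the same libraries, named through RefSeq accessions. The oocyte and embryo markers matched to 6 of 9 genes, and all 8 of their transcripts were above 0 in every library. Their values summed to 4225, 1567 and 1631 FPKM. Cumulus or granulosa markers (8 of 14 genes matched) summed to between 59.1 and 85.2 FPKM, mostly STAR, HAS2 and TNFAIP6, with 7 of 10 transcripts under 1 FPKM in all libraries and the inhibin subunit INHA listed at 0 in each. Of these STAR, a cholesterol transporter of steroid-producing cells, moved with the members, from 47.2 to 11.4 and 12.4 FPKM, whereas TNFAIP6 went from 2.22 to 26.6 and 51.2 FPKM. Fibroblast markers (10 of 15 genes matched) summed to 152, 89.4 and 104 FPKM, mostly DCN and FN1, which were lower in both eight-cell libraries. LUM (3.56, 9.53 and 15.7 FPKM) and COL3A1 (0.0065, 0.650 and 1.43 FPKM) went the other way, and POSTN, THY1 and PDGFRA were listed at 0 in IVF-2c. Sperm markers (3 of 8 matched) stayed at or below 4.19 FPKM in sum. The part of such cells in the member values was not tested.

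The members had a median of 10.7 FPKM in IVF-2c, with a range from 5.07 to 636.1 FPKM. In IVF-8c the median was 1.54 FPKM and in SCNT-8c 1.71 FPKM. In IVF-2c, 65 members were under 10 FPKM, 61 between 10 and 50, 8 between 50 and 100, and 10 at 100 FPKM or more. By the eight-cell stage 22 members were under 1 FPKM in both libraries, 80 were at 1 FPKM or more in both, and 42 were on either side of 1 FPKM in the 2 libraries. The values of 3 members were under 0.01 FPKM in an eight-cell library, far under the other members.

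**Figure D1:**
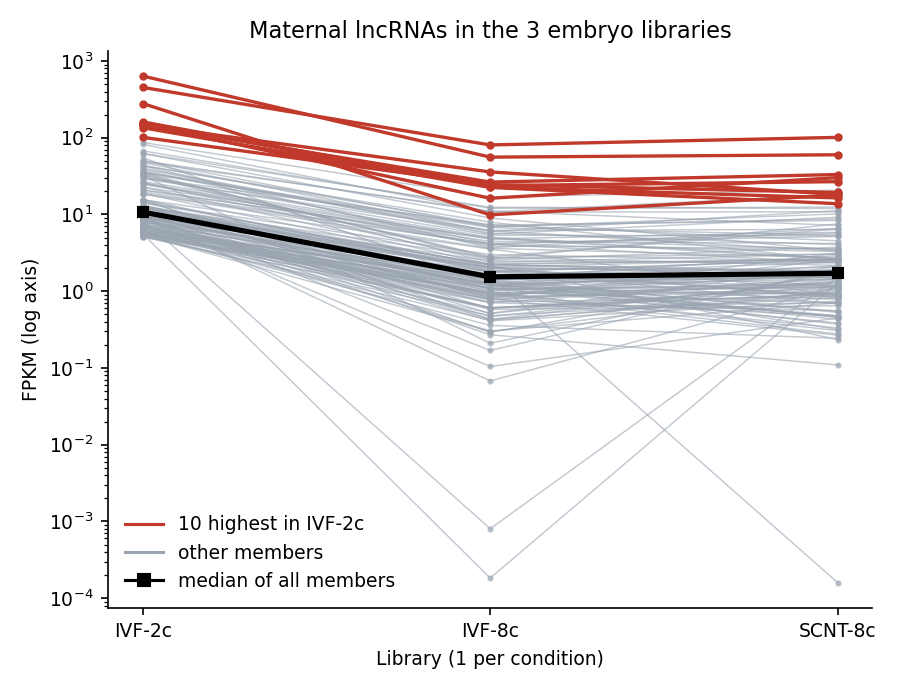
FPKM (log axis) of all 144 members in each of the 3 libraries, 1 line per lncRNA and 1 library per condition, with the 10 highest in IVF-2c in red and the median in black. The median goes from 10.7 to 1.54 and 1.71 FPKM, and 3 lines drop under 0.01 FPKM in an eight-cell library.

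A few transcripts held much of the signal. The members summed to 4693, 659.1 and 697.1 FPKM, which was 3.72%, 0.562% and 0.636% of the summed FPKM of all lncRNAs. Over the lncRNAs that were no members the sum went from 121411 to 116715 and 108965 FPKM. The 10 highest members supplied 50.4%, 48.3% and 48.3% of the members' sum. Their weight within the group was nearly the same at each stage. Among all lncRNAs of the table, 9 members ranked within the top 100 in IVF-2c, and 0 did in IVF-8c or SCNT-8c. The lower sums and ranks of the members come from the values by which the rule chose them.

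TCONS_00166268 was the most abundant member, at 636.1, 55.9 and 60.01 FPKM, and went from rank 17 of all lncRNAs to ranks 227 and 218. TCONS_00166267, the next number of the assembly, was second at 452.7, 80.5 and 101.1 FPKM. By these estimates TCONS_00166268 was the higher one in IVF-2c and TCONS_00166267 in both eight-cell libraries. Transcripts next to each other in number may share fragments, and how fragments were divided between these was not tested. TCONS_00003675 was lowered furthest among the 10, from 278.8 FPKM to 9.89 FPKM in IVF-8c (3.55% of the two-cell value) and 17.9 FPKM in SCNT-8c (6.43%). No other lncRNA of the table has a number within 10 of it.

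The other members of the top 10 lay closer together. TCONS_00134035 was at 160.6, 23.8 and 26.8 FPKM. TCONS_00213896 was at 157.9, 22.8 and 16.4 FPKM. TCONS_00322149 was at 149.7, 16.3 and 30.2 FPKM, the largest ratio of SCNT-8c over IVF-8c among the 10. By contrast TCONS_00023987, at 145.8 FPKM in two-cell embryos, had 35.9 FPKM left (IVF-8c) and 18.2 FPKM (SCNT-8c). TCONS_00206585 had a similar order of its eight-cell values, with 134.8, 22.5 and 13.8 FPKM. TCONS_00128941 (146.8, 26.4 and 33.1 FPKM) and TCONS_00571890 (101.1, 24.5 and 19.4 FPKM) completed the group. SCNT-8c exceeded IVF-8c for 6 of the 10, and was under it for 4.

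**Figure D2:**
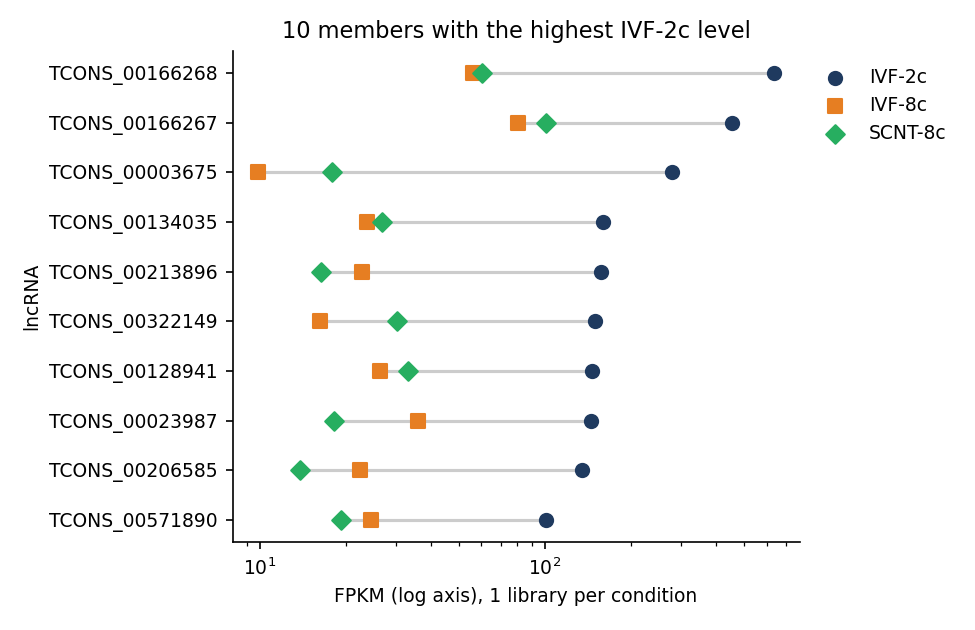
FPKM (log axis) of the 10 members with the highest two-cell level, with circles for IVF-2c, squares for IVF-8c and diamonds for SCNT-8c, 1 library each. Each IVF-2c value is over 4 times both eight-cell values, and TCONS_00003675 has the lowest IVF-8c value of the 10 (9.89 FPKM).

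The remaining share, the eight-cell FPKM as a percentage of the IVF-2c FPKM, had a median of 15.1% in IVF-8c and 15.9% in SCNT-8c. Because the rule caps this share, its upper end is fixed, and only the spread under that limit describes the members. In IVF-8c, 16 members had under 5% left, 21 between 5% and 10%, 78 between 10% and 20%, and 29 at 20% or more. In SCNT-8c these numbers were 11, 31, 68 and 34. Deep falls in both libraries were rare: 17 members were under 10% in both and 2 were under 5% in both. Of these TCONS_00591420 went from 9.19 FPKM to 0.271 FPKM, which left 2.95%, in IVF-8c and to 0.110 FPKM, which left 1.19%, in SCNT-8c. TCONS_00609151 was the more abundant of the pair and went from 55.1 FPKM to 1.21 and 1.72 FPKM. TCONS_00306779 followed, at 8.78, 0.105 and 0.448 FPKM. TCONS_00023084 went from 32.3 FPKM to 0.210 and 1.84 FPKM, a larger fall in IVF-8c than in SCNT-8c.

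At the fold limit the members ran into the other lncRNAs without a gap. Just inside were TCONS_00540720, TCONS_00127460 and TCONS_00278806, whose smaller log2 ratios were 2.0003, 2.003 and 2.01. Just outside were TCONS_00172417, TCONS_00383740 and TCONS_00638419, at 1.9995, 1.999 and 1.99. The 5 FPKM limit was as arbitrary, with TCONS_00232516 (5.07 FPKM), TCONS_00484571 (5.15) and TCONS_00278394 (5.16) inside and TCONS_00594076 (4.999), TCONS_00277382 (4.99) and TCONS_00233070 (4.95) outside.

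The number of members depends on how the libraries are scaled, and whether a shift of all transcripts is one of scale or of RNA content was not tested. Over the 12085 lncRNAs above 0 in every library, the median log2 ratio to IVF-2c was -0.45 for IVF-8c and -0.24 for SCNT-8c. It was -0.33 and -0.28 over 18245 mRNAs. Median-ratio scaling on the mRNAs moved the lncRNA medians to -0.10 and 0.06. On that scale the same 144 lncRNAs kept a median of 19.7% of their two-cell level in IVF-8c and 20.1% in SCNT-8c. The scaling multiplies all shares of a library by 1 factor, which moves their upper ends to 32.1% and 30.9%. It raises every share, so no other lncRNA could enter, and the 63 lncRNAs that still met the rule were all members. The 5 FPKM minimum was applied to the scaled values, which left 1943 lncRNAs in place of 2242. Members close to 5 FPKM were therefore lost by that minimum, whatever their fall. Among the 10 highest, 5 dropped out on this scale: TCONS_00166267, TCONS_00322149, TCONS_00128941, TCONS_00023987 and TCONS_00571890.

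The members were next set against the lncRNAs from which they were chosen. In IVF-2c 3143 lncRNAs reached 5 FPKM, and 2242 of these were above 0 in every library. Of the 2242, 352 (15.7%) were lower in IVF-8c by the fold limit and 282 (12.6%) in SCNT-8c, and the 144 that were lower in both made up 6.42%. Both comparisons use the same IVF-2c library, so a high IVF-2c estimate enters each of them. Across the 2242 lncRNAs, themselves chosen for a high IVF-2c value, the unscaled median remaining share was 52.3% in IVF-8c and 59.4% in SCNT-8c. Of them 72.8% were lower than in IVF-2c in both libraries. Only 7 were higher in both eight-cell libraries by the same fold limit.

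**Figure D3:**
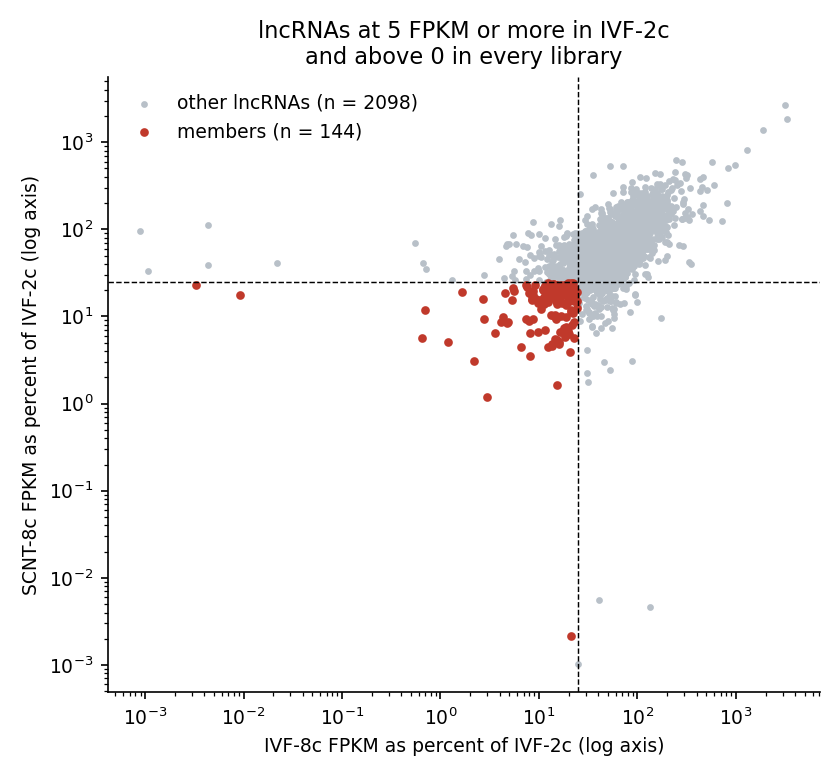
Remaining share in IVF-8c (horizontal) and SCNT-8c (vertical), in percent of IVF-2c on log axes, for 2242 lncRNAs at 5 FPKM or more in IVF-2c and above 0 in every library, 1 point each. The 144 members (red) fill the corner under the dashed lines at 25%, and the other 2098 lncRNAs (grey) adjoin them. Both axes share the IVF-2c value.

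The rule requires a value above 0 in every library and so passes over lncRNAs listed at 0. Among the 3143 lncRNAs at 5 FPKM or more in IVF-2c, 901 were listed at 0 in an eight-cell library, 666 of them in both. An exact 0 may be a failed estimate or a lost RNA, and the files do not say which. Among mRNAs, XM_013971491.1 had a value of 391451 FPKM in two-cell embryos and was likewise listed at 0 in both eight-cell libraries. The highest of the 666 were TCONS_00440474 (152.3 FPKM in IVF-2c), TCONS_00084106 (117.2 FPKM) and TCONS_00340885 (107.9 FPKM), and 20 reached 50 FPKM. With these lncRNAs kept, the rule gave 870 in place of 144.

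The same rule was applied with each of the other libraries as the high one. In IVF-8c 101 lncRNAs stood above both other libraries, 5.65% of the 1788 at 5 FPKM or more there, and in SCNT-8c 18 did so, 0.966% of 1863. The order of the groups depends on the setting. With a pseudocount of 1 FPKM there were 68 lncRNAs for IVF-2c and 72 for IVF-8c, and at a log2 limit of 3 there were 17 and 46. After scaling by mRNA median ratios IVF-8c also had the largest group, with 115 lncRNAs, while IVF-2c had 63 and SCNT-8c had 22.

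Maternal mRNAs of the same libraries give a measure for the lncRNAs. By the same rule 182 mRNAs fell in both eight-cell libraries, 2.45% of the 7426 at 5 FPKM or more in IVF-2c and above 0 in every library, against 6.42% of lncRNAs. Taken singly, 6.41% of these mRNAs were lower in IVF-8c and 4.58% in SCNT-8c. The share of lncRNAs was above that of mRNAs in each interval of the IVF-2c level, from 4.94% to 7.81% for lncRNAs and from 1.51% to 3.22% for mRNAs. It was also above it under the 10 alternative settings in which mRNAs were counted too, with 3.24% against 1.15% after scaling by mRNA median ratios and 31.5% against 20.5% at a log2 limit of 1. No replicate error stands behind these shares. Listing at 0 separated the 2 kinds of RNA further, since 46 of 7472 mRNAs at 5 FPKM or more in IVF-2c were at 0 in an eight-cell library, against 901 of 3143 lncRNAs. By the rule with another library as the high one, 64 mRNAs (0.936%) stood out in IVF-8c and 11 (0.161%) in SCNT-8c. The lncRNA shares there were 5.65% and 0.966%. A larger share of lncRNAs than of mRNAs was therefore found with each library as the high one, and was not particular to the members.

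**Figure D4:**
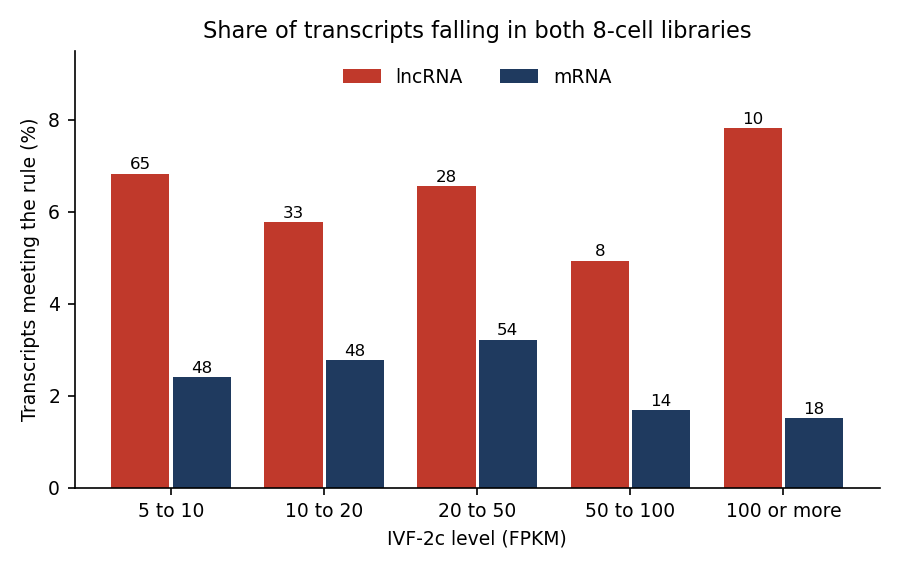
Percentage of transcripts that meet the rule, by IVF-2c level in FPKM, for lncRNAs (red) and mRNAs (blue), with the number of such transcripts over each bar. The lncRNA bars lie between 4.94% and 7.81%, above the mRNA bars, which lie between 1.51% and 3.22%, with 1 library per condition and no error bars.

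Among mRNAs with a known role in the oocyte, 13 of 26 listed genes were matched, with 12 transcripts at 5 FPKM or more in IVF-2c and above 0 in every library. All 12 were lower in both eight-cell libraries, as were 65.5% of the 7426 mRNAs, and 2 met the rule of the members, against 2.45% of those mRNAs. These were ZAR1, a regulator of stored mRNA (201.9, 27.2 and 30.7 FPKM), and ZP4, a protein of the zona pellucida (606.1, 138.2 and 104.1 FPKM). MOS, the kinase that holds the oocyte in meiosis, went from 1724 to 396.6 and 689.9 FPKM, and passed the limit in IVF-8c alone. The oocyte growth factors BMP15 (472.5, 177.4 and 226.5 FPKM) and GDF9 (NM_001285708.1: 354.1, 146.3 and 180.4 FPKM) were outside the rule. BTG4 itself was at 10551, 7830 and 9371 FPKM. Of the 30 listed genes of RNA clearance 12 were matched, and of their 12 transcripts at 5 FPKM or more 8 were lower in both libraries and 0 met the rule, which 2.45% of all such mRNAs did. CNOT10, a CCR4-NOT subunit, came nearest with 108.0, 28.3 and 30.002 FPKM. For contrast, 7 of 20 listed EGA genes were matched. SUPT4H1 was at 1.02, 321.9 and 177.8 FPKM, ARGFX at 0.106, 842.8 and 628.0, and KLF17 at 0, 87.6 and 46.2. EIF1AX (46.99, 230.5 and 96.9 FPKM) and EIF1AD (1.15, 15.7 and 14.8 FPKM) were also higher in both eight-cell libraries. SOX2 (0.676, 0.644 and 1.90 FPKM) was not higher in IVF-8c, and NANOG stayed low (0, 0.138 and 0.0934 FPKM).

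The 182 mRNAs and the 144 lncRNAs had like remaining shares, both being capped by the rule, with medians of 15.7% and 18.2% for the mRNAs in IVF-8c and SCNT-8c. The 5 highest of these mRNAs were XM_013976082.1 (3732, 255.2 and 404.6 FPKM), XM_005690196.2 (806.0, 129.6 and 145.6), ZP4, XM_005692598.2 (571.0, 75.8 and 119.4) and TYMS, the enzyme that makes thymidylate for DNA synthesis (415.6, 56.2 and 60.5 FPKM). RefSeq gave a name for 51 of the 182.

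The eight-cell libraries were then compared with each other for the members. The rule holds both values under the same limit but does not set their order. SCNT-8c exceeded IVF-8c for 83 of 144 members (57.6%), with a median log2 ratio of SCNT-8c over IVF-8c of 0.14. The same median was 0.20 over the 2242 lncRNAs at 5 FPKM or more in IVF-2c and 0.14 over all 12085 above 0 in every library. In those sets SCNT-8c was the higher one for 61.3% and 55.9%. After scaling by mRNA median ratios the median of the members was 0.10, with SCNT-8c higher for 79 of them. SCNT-8c was higher by a log2 ratio above 1 in 18 members (12.5%, against 14.6% of the 2242), and IVF-8c in 22 members (15.3%, against 8.7%). Over the 12085 lncRNAs these shares were 22.7% for SCNT-8c and 19.0% for IVF-8c. The members had low eight-cell levels, with medians of 1.54 FPKM (IVF-8c) and 1.71 FPKM (SCNT-8c), and the part of level in these shares was not tested. The 24 members with at least 5 FPKM in IVF-8c and in SCNT-8c lay within a log2 ratio of 1, from -0.97 to 0.89. That requirement itself removes members with 1 low value, such as TCONS_00339156 (62.2, 8.999 and 3.39 FPKM, log2 ratio -1.38) and TCONS_00077070 (34.9, 2.63 and 7.52 FPKM, log2 ratio 1.48), which were named after their values were seen.

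**Figure D5:**
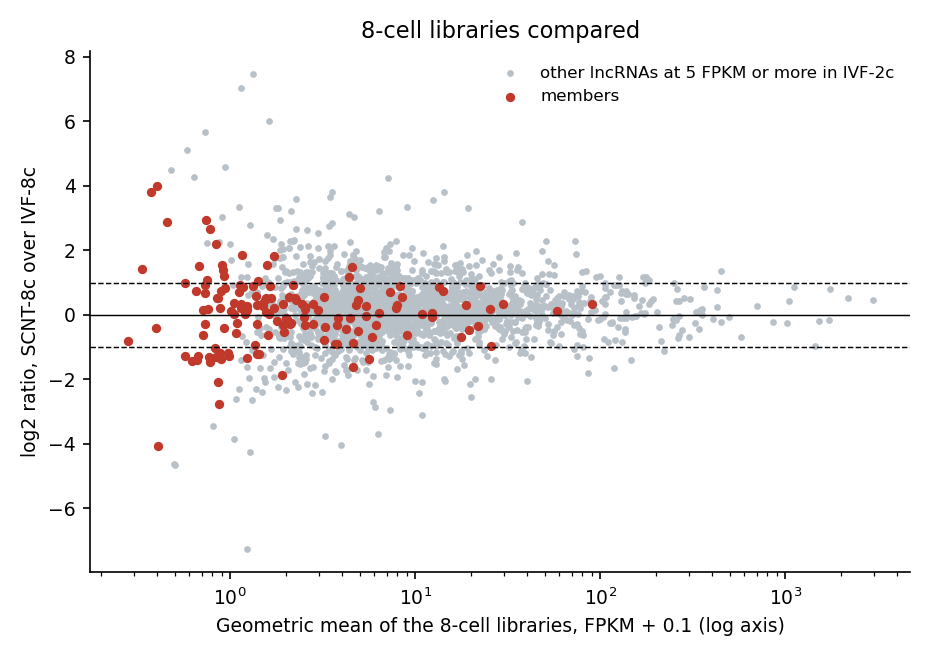
log2 ratio of SCNT-8c over IVF-8c against the geometric mean of both eight-cell values (FPKM + 0.1, log axis) for the 144 members (red) and the other lncRNAs at 5 FPKM or more in IVF-2c (grey). The dashed lines mark ratios of 1 and -1, beyond which lie 18 members above and 22 below. TCONS_00023987 (-0.97) and TCONS_00322149 (0.89), among the 10 highest, lie just inside them.

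Some members were nearly lost in 1 of the eight-cell libraries alone. TCONS_00055509, at 8.63 FPKM in two-cell embryos, was at 8.0e-04 FPKM (IVF-8c) and 1.51 FPKM (SCNT-8c), and TCONS_00555029, at 5.57 FPKM, was at 1.8e-04 and 1.29 FPKM. TCONS_00213455 went from 10.2 to 0.169 and 1.95 FPKM. TCONS_00372366 went from 9.64 to 0.0678 and 1.14 FPKM. The ratios of these members rest on IVF-8c values close to 0.

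In the other direction, TCONS_00407628 was at 7.49 FPKM in two-cell embryos, 1.57 FPKM (IVF-8c) and 1.6e-04 FPKM (SCNT-8c). TCONS_00194233 went from 14.4 to 2.17 and 0.234 FPKM. TCONS_00340127 (8.21, 1.68 and 0.318 FPKM) and TCONS_00263526 (15.6, 3.55 and 0.891 FPKM) showed smaller gaps. TCONS_00135663 was the most abundant of these, with 43.2, 7.95 and 2.54 FPKM.

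The only property of the members besides their levels is their number in the assembly. No sequence or position of these transcripts was in the tables used here, so none is shown. Transcripts of 1 assembled locus are commonly numbered one after another, but the files do not give the loci. The member numbers ran from 3675 to 638983 in a table that runs from 67 to 654579. Of the 144 members, 27 had another member within 10 numbers, in 13 runs of at most 3, and 9 pairs had consecutive numbers. Among the 106 lncRNAs of the 2242 with another member within 10 numbers, 27 (25.5%) were members, against 6.42% of all 2242. Members in a run may share fragments and are not independent of each other.

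Some runs joined transcripts of unequal level. TCONS_00571889 and TCONS_00571890 went from 30.3 and 101.1 FPKM to 7.31 and 24.5 FPKM (IVF-8c) and to 4.54 and 19.4 FPKM (SCNT-8c). TCONS_00323458 and TCONS_00323459 went from 48.4 and 19.7 FPKM to 11.1 and 4.13 FPKM (IVF-8c) and to 7.20 and 2.36 FPKM (SCNT-8c). In both pairs the SCNT-8c values were the lower ones, but other pairs were split: TCONS_00323672 was at 6.01 FPKM (IVF-8c) and 11.2 FPKM (SCNT-8c), and TCONS_00323673 at 4.08 and 3.29 FPKM. TCONS_00024454, TCONS_00024463 and TCONS_00024465 formed the run of 3, at 10.7, 81.9 and 8.997 FPKM in IVF-2c. Next to them TCONS_00024466, which is no member, was at 228.4, 123.3 and 102.6 FPKM.

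Other lncRNAs with neighbouring numbers were then added in. For 138 members the table had other lncRNAs within 10 numbers. When their FPKM was added to that of the member, the sum met the fold limit in both libraries for 53 of the 138. For 9 the sum was not lower in both eight-cell libraries than in IVF-2c. Each sum contains the member itself, which was chosen for its fall. Such sums were not taken around lncRNAs that were no members, so these counts have no share to be set against. For TCONS_00166267 and TCONS_00166268 the sum was still lower, at 1111 FPKM against 150.4 or 150.8 FPKM (IVF-8c) and 197.7 or 198.7 FPKM (SCNT-8c), depending on which of them is at the centre. TCONS_00312272 went from 5.88 to 0.722 and 0.851 FPKM. Beside it TCONS_00312279 went from 0.380 to 241.6 and 26.8 FPKM and TCONS_00312278 from 0.657 to 96.4 and 20.4 FPKM. TCONS_00014003 (6.198, 1.42 and 0.531 FPKM) lay 3 numbers from TCONS_00014006, which was listed at 0 in IVF-2c and was at 9.70 and 11.0 FPKM in IVF-8c and SCNT-8c. Whether these are transcripts of 1 locus was not tested.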

How the data were processed

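RNA of goat embryos (Capra hircus) was amplified as cDNA and sequenced in 3 libraries. Per the labels' processing notes, TopHat2 2.0.12, Bowtie2 2.2.3, Cufflinks 2.1.1 and Cuffdiff were used. The authors deposited FPKM values per assembled lncRNA, after filters on length, exon number, coverage, annotation and coding potential, and per mRNA. The genome build is not given in the sources used here. The 6 fibroblast libraries of the 9 in the series were not used, since their table lists no TCONS transcript.

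Members, ratios (pseudocount 0.1 FPKM), shares and counts were computed in pandas 2.3.3 and numpy 2.4.6 under Python 3.11.15, with plots by matplotlib 3.10.9, and the counting was tested on simulated data. No test was run, and no low-value filter other than the rule was used. Of 30147 mRNA accessions, 13518 (44.8%) matched a RefSeq gene (ARS1.2) without version. Named members were the highest, the most lowered, those with the largest difference between eight-cell libraries and those at the limits. TCONS_00014003, TCONS_00312272 and the transcripts named for their numbers were chosen after their values were seen. Members and lists were chosen with earlier results of these data known. Columns without a sample numbered 0. Alternatives were other pseudocounts, minima, limits and scalings.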

Additional observations from a re-analysis of the deposited data

How the results depend on the processing

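Values are called changed where they moved by over 1.5 times, and 1 library per condition gives no error to compare with. The number of maternal lncRNAs (144) was 68 with a pseudocount of 1 FPKM, 381, 440 and 79 with a minimum of 1 FPKM, none or 10 FPKM, 706 and 17 at log2 limits of 1 and 3, 63 and 60 after scaling by mRNA or lncRNA median ratios, and 870 with lncRNAs listed at 0 kept. With FPKM summed within 10 numbers, a setting chosen after seeing the data, 59 of the 144 members met the fold limit. Only the members were counted there, so that number could not exceed 144, and members close in number share much of their sum. The median remaining share became 28.8% in IVF-8c and 29.5% in SCNT-8c at a limit of 1, 4.73% and 6.65% at a limit of 3, and 0 in each with zeros kept. The lncRNAs high in IVF-8c or SCNT-8c (101 and 18) became 288 and 100 with a minimum of 1 FPKM, 54 and 11 with 10 FPKM, 339 and 151 with none, 213 and 107 at a limit of 1, and 46 and 5 at a limit of 3. With zeros kept this count was not run. The mRNAs (182) became 99 with a pseudocount of 1 FPKM, 321 and 362 with a minimum of 1 FPKM or none, 1519 and 19 at limits of 1 and 3, and 79 and 74 after mRNA or lncRNA scaling. The members' share of summed lncRNA FPKM (IVF-2c first, then IVF-8c, then SCNT-8c) was 23.6%, 6.53% and 7.94% at a limit of 1, 0.943%, 0.0674% and 0.0866% at a limit of 3, 1.93%, 0.220% and 0.235% after mRNA scaling, 1.97%, 0.213% and 0.256% after lncRNA scaling, and 12.9% in IVF-2c with zeros kept. The other 55 values moved by less. Among them was the members' median log2 ratio of SCNT-8c over IVF-8c, which lay between 0 and 0.47 under the alternatives. The ratio that this log2 value stands for moved by under 1.5 times. With the summed FPKM it was not run. These settings change which lncRNAs pass by construction. No paired analysis was possible because each embryo condition has 1 library and no test was run. Depth is unknown, so no limit can be set for values near 0.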

Other observations

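Several members had neighbours in number that were listed at 0 in IVF-2c and seen only or mainly in 1 of the eight-cell libraries. Around TCONS_00334277 (7.54, 0.875 and 1.71 FPKM, with IVF-2c first, then IVF-8c, then SCNT-8c), TCONS_00334287, TCONS_00334282 and TCONS_00334283 had SCNT-8c values of 42.0, 17.4 and 10.1 FPKM, while both IVF libraries listed them at 0. Around TCONS_00533445 (6.25, 1.16 and 1.45 FPKM), TCONS_00533441 was at 23.0 FPKM in SCNT-8c and TCONS_00533447 at 9.26 FPKM, again with both IVF libraries at 0. Next to TCONS_00287532 (7.07, 0.303 and 0.704 FPKM), TCONS_00287533 was at 5.85 FPKM in IVF-8c and 0.140 in SCNT-8c. These lncRNAs were named after their values were seen. The members beside them are among the 9 whose sum with their neighbours was not lower in both eight-cell libraries. Whether they share a locus with the member was not tested.

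Levels were also taken for the lncRNAs that the same rule found in the other libraries. In IVF-8c the highest was TCONS_00178965, at 484.7 FPKM against 94.5 in SCNT-8c and 2.0e-05 in IVF-2c, and the median level of the 101 was 10.9 FPKM. In SCNT-8c the highest was TCONS_00323432, at 101.5 FPKM against 19.1 FPKM in two-cell embryos and 13.8 FPKM in IVF-8c, and the median of the 18 was 14.5 FPKM.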
